A study of Mus musculus with 6 samples.

Results

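Thy1, Fap, Dpp4, Entpd2, Nt5e, Cd248, Meox2 and Mgp are 8 genes used to mark portal fibroblasts and other stromal cells, and they were followed across fractions of the embryonic mouse liver. Their probe sets were taken by name, as every probe set whose gene symbol equals one of the 8. This gave 14 of 45101 probe sets on the array and 8 of 20677 genes measured. The 8 genes were chosen with earlier results of these data known, so counts and medians of members beside all genes only describe them. Dpp4 was measured by 4 probe sets, Nt5e by 3, Meox2 by 2 and the other 5 genes by 1 each. RNA came from wild-type C57Bl6 embryos at E12.5, and every group shares that strain, genotype and age. The 6 groups were liver cells, ALCAM+ cells, and ALCAM+ cells that were also PDPN+, PDPN-, ITGA8+ or ITGA8-, with 1 Affymetrix Mouse Genome 430 2.0 array each. ALCAM is a cell surface adhesion protein, podoplanin (PDPN) a mucin-type glycoprotein found on mesothelium, and ITGA8 the integrin alpha 8 subunit, which the series links to hepatic stellate cells. How many embryos were pooled per sample is not given in the sources used here.

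Portal fibroblasts are the matrix-producing cells around the portal vein and bile ducts, and stellate cells are the pericytes of the sinusoids, which store retinoids. THY1 and the ecto-ATPase ENTPD2 are used to tell portal fibroblasts from stellate cells in the adult rodent liver. FAP and DPP4 are closely related membrane proteases that cut after proline, and ENTPD2 and NT5E act at different steps of the breakdown of extracellular ATP to adenosine.

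With 1 array in each group there is nothing to test against, and the order of neighbouring levels cannot be set against a replicate error. Differences are on the scale of log2(intensity + 16), which understates differences of low genes. An intensity of 109, the median of all probe set values on the 6 arrays, served as a floor, and a gene entered a comparison when the higher of its 2 arrays was above it. Genes were counted as higher or lower from a 2-fold difference on. A fold against an array below the floor depends on the pseudocount and has no fixed size. The 4 fraction arrays shared a scale, with trimmed mean intensities of 996 to 997, while liver was at 196 and ALCAM+ at 331. In bulk samples such as these, fewer cells of a type and less RNA per cell cannot be told apart. The PDPN- array stood apart in its megakaryocyte genes, with a summed intensity of 88 for 6 genes, against 14001 to 31964 in the other fractions. Its sum of 6 neutrophil genes was 62, against 1738 to 24738. Most of that sum in the ITGA8 fractions came from Mpo, at 2532 in ITGA8+ and 1618 in ITGA8- cells. S100a8 was at 16 in PDPN-, 17 in ITGA8+, 25 in ITGA8- and 8407 in PDPN+ cells. Erythroid sums were 1467 in PDPN- and 1993 in PDPN+ cells, against 21606 in ITGA8+ and 16790 in ITGA8- cells. The sort markers went with the labels, with Pdpn at 7746 against 117 in its split and Itga8 at 4354 against 871.

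The genes did not form 1 group. Thy1, Fap, Cd248 and Meox2 were highest in ITGA8+ cells among the 4 fractions, Mgp in ITGA8- cells, Dpp4 in PDPN+ cells and Nt5e in PDPN- cells. ITGA8+ was thus the highest fraction for 4 of the 7 members above the floor in some fraction. Among 14503 genes it was the highest for 33.6%, and PDPN-, PDPN+ and ITGA8- for 26.2%, 20.3% and 19.9%. Thy1 was among the 7 through ITGA8+ cells alone, so it could be counted only there. Entpd2 was below the floor on every array.

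**Figure D1:**
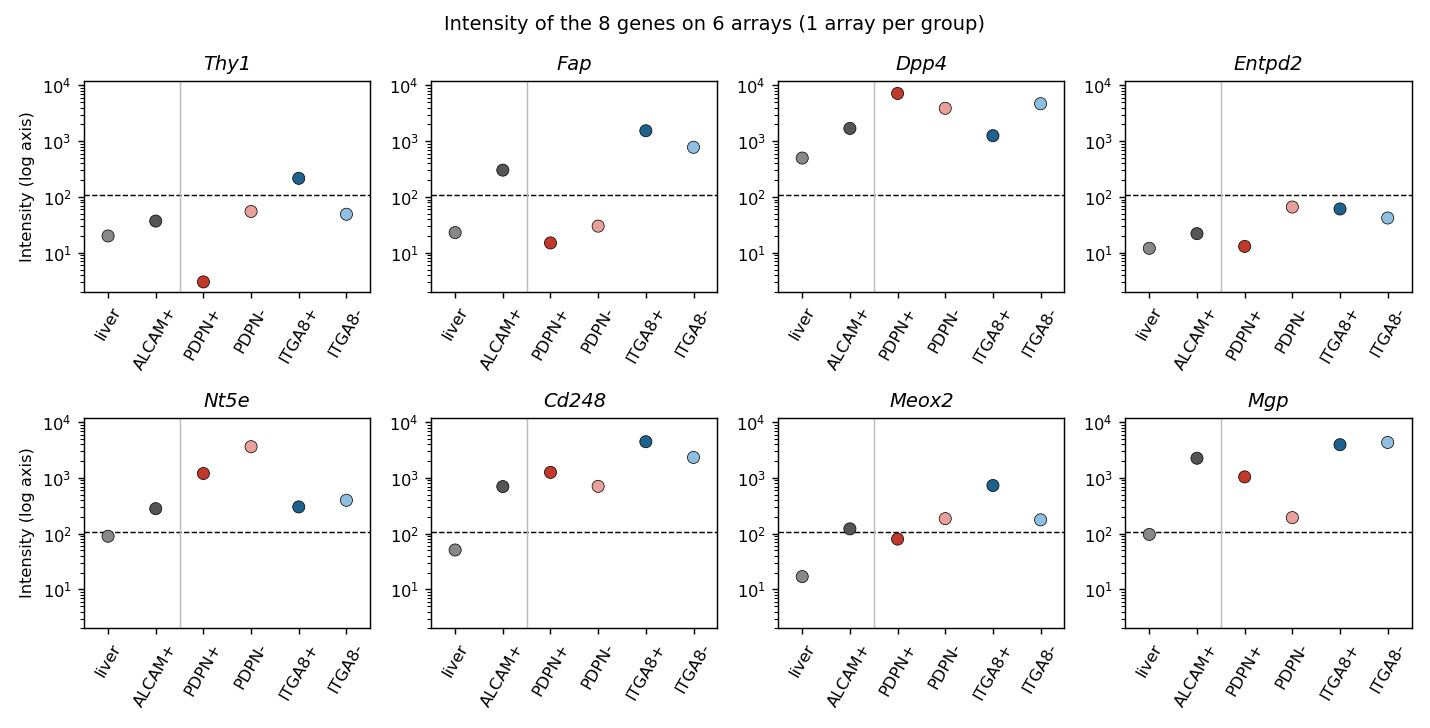
Intensity (log axis) of each gene's probe set with the highest mean, on the 6 arrays, 1 point per array; the dashed line is the floor of 109 and the grey line separates the liver and ALCAM+ arrays from the 4 fraction arrays, which share a scale. Dpp4 is above the floor on 6 arrays, Thy1 on 1 and Entpd2 on none, and Fap is high in both ITGA8 fractions and low in both PDPN fractions.

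The 2 genes used in the adult liver to define portal fibroblasts were low. Thy1, a small glycoprotein anchored in the outer membrane of T cells, neurons and fibroblasts, had an intensity of 20 in liver and 37 in ALCAM+ cells, of 3 in PDPN+ against 55 in PDPN- cells, and of 216 in ITGA8+ against 49 in ITGA8- cells. It passed the floor in ITGA8+ cells alone. Entpd2 had an intensity of 12 in liver and 22 in ALCAM+ cells, 13 in PDPN+ against 66 in PDPN- cells, and 61 in ITGA8+ against 42 in ITGA8- cells, so that none of its differences can be read. The name portal fibroblast therefore rests here on other genes, and the 8 are described one by one.

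Within an array, the rank of a probe set does not depend on the scale, so ranks allow all 6 arrays to be set side by side. Mgp lay above 65.1% of probe sets in liver and 95.1% in ALCAM+, but above only 56.0% in PDPN-. Fap lay above 36.2% in liver and 73.9% in ALCAM+, above 17.3% in PDPN+ but 29.0% in PDPN-, and above 80.2% in ITGA8+ but 69.6% in ITGA8-. Its rank in ALCAM+ cells was thus above that in both PDPN fractions of these cells, and between those in the ITGA8 fractions. Dpp4 ranked high throughout, from 77.7% in ITGA8+ to 95.7% in PDPN+. Entpd2 never passed 41.6%.

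**Figure D2:**
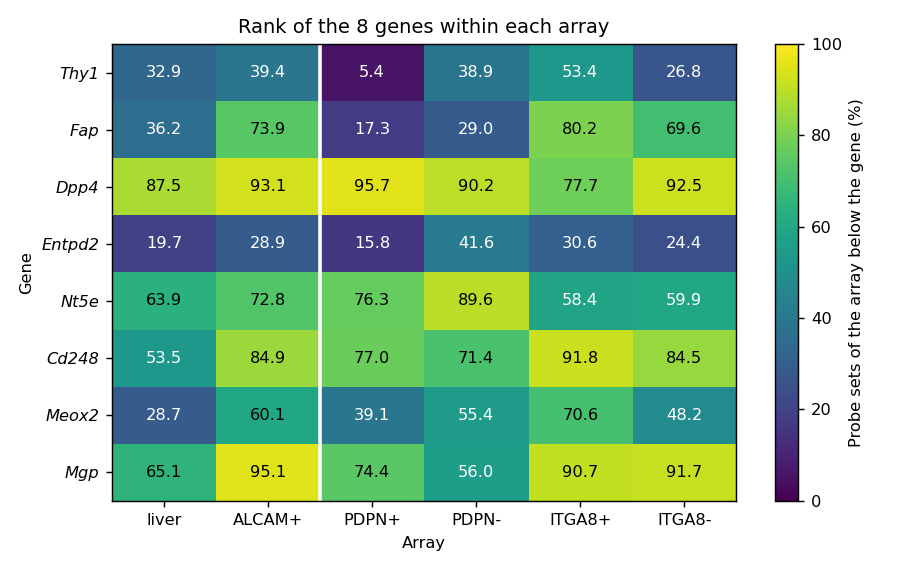
Percent of an array's probe sets with a lower intensity than the gene's probe set with the highest mean, for the 8 genes (rows) on the 6 arrays (columns). The white line separates the liver and ALCAM+ arrays from the 4 fraction arrays. Mgp goes from 65.1% in liver to 95.1% in ALCAM+ cells, and Fap is at 73.9% in ALCAM+ cells but at 17.3% and 29.0% in the PDPN fractions.

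Promoter sequences were at hand for 4 members, and those of the 3 members with several probe sets are shown. That of Entpd2, which was below the floor on every array, is left out. The sequences shown are from RefSeq, build GRCm38.p6, 250 bases before to 50 after the start, matched by symbol. Capitals mark the motifs found.
Dpp4, chr2:62412182-62412481, minus strand: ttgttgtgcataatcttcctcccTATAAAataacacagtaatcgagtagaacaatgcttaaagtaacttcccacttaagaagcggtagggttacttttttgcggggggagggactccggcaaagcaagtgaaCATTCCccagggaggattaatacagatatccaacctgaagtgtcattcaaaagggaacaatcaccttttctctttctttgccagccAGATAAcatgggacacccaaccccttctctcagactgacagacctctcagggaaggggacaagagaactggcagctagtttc
Nt5e, chr9:88327359-88327658, plus strand: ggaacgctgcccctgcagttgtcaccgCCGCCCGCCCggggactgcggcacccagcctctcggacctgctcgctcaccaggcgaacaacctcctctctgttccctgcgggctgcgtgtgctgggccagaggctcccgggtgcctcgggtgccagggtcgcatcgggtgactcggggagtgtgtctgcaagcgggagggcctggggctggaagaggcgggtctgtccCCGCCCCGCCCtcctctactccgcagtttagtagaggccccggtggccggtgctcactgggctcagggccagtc
Meox2, chr12:37108290-37108589, plus strand: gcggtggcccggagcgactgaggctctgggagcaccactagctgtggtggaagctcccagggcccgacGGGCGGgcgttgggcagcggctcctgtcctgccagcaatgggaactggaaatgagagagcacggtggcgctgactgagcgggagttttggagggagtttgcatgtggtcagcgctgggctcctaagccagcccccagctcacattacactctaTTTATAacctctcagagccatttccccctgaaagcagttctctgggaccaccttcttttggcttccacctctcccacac

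The motifs searched, on both strands, were TATAAA, known as the TATA box, GGGCGG, known as the GC box, the CCAAT box, CATTCC as the core of TEAD sites, and AGATAA as bound by zinc finger factors of blood and gut. GGGCGG matched 4 times in the Nt5e window, as 2 pairs of overlapping matches, and once in that of Meox2, against 35.7% of 32851 promoters with a match. TATAAA matched once in the windows of Dpp4 and Meox2, against 13.6% of promoters. CATTCC (14.7% of promoters) and AGATAA (11.2%) matched once each in the Dpp4 window, and CCAAT (37.4%) in none of the 3. The Nt5e window held 71% G and C, that of Meox2 60.7% and that of Dpp4 45.3%, against a median of 52.7% over all promoters. These matches describe the letters and were not tied to the levels.

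ALCAM+ cells were set against liver cells to see which members the first marker enriched. Mgp, Cd248, Fap and Meox2 were higher in ALCAM+ cells, and Thy1 and Entpd2 were below the floor on both arrays. The median gene above the floor was 1.87-fold higher in the deposited ALCAM+ values (0.90 on the log2 scale), and the differences here are relative to that shift. Whether Dpp4 and Nt5e passed 2-fold depended on it: their log2 differences were 0.83 and 0.59 with it subtracted, 1.27 and 1.02 with the median over all genes (0.47) subtracted, and 1.73 and 1.49 as deposited. Higher were thus 4 of the 6 members above the floor, against 15.5% of 10982 genes, and none was lower, against 11.3%. The median was 1.65 on the log2 scale over the 6 members and 0 over all genes. Without subtracting the shift, 94.5% of the genes past 2-fold were higher, against 57.9% with it. At 4-fold 3 members were higher, against 3.57% of genes, and none lower, against 2.31%. Mgp, Cd248, Fap, Meox2 and Nt5e were below the floor in liver and entered through ALCAM+ cells alone, so none of them could be counted as lower. Nothing is read from these counts or from the members' median.

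Mgp, whose vitamin K dependent product inhibits calcification of soft tissue, had an intensity of 97 in liver and 2255 in ALCAM+ cells. That is a log2 difference of 3.43. Cd248, which encodes the stromal and pericyte surface protein endosialin, was at 51 in liver and 699 in ALCAM+ cells, a log2 difference of 2.52. Fap was at 23 and 303, a difference of 2.13, or 1.30 with a pseudocount of 64. The homeobox gene Meox2 was at 17 and 122, a difference of 1.16, which fell within 2-fold, at 0.42, with a pseudocount of 64. Its other probe set, at 9 and 54, could not check this because it was below the floor. Dpp4 was at 499 and 1696, and Nt5e at 90 and 281. The other probe sets of Dpp4 and Nt5e were below the floor on both arrays. For the 4 higher members the liver array was below the floor.

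In the same comparison, 12 of 14 other portal fibroblast genes above the floor were higher in ALCAM+ cells (median 1.87 on the log2 scale). They included the collagen receptor gene Ddr2 at 3.49, the crosslinking enzyme gene Lox at 3.08 and the microfibril gene Mfap4 at 2.57. Of 9 other mesenchymal stromal surface genes 3 were higher. Mesothelial markers were higher in 8 of 9, with a summed intensity of 2152 in liver and 17701 in ALCAM+ cells, and stellate markers in 6 of 9, with 1215 and 6017. Erythroid markers were lower in 5 of 5, with 15613 and 4717, and neutrophil markers in 4 of 5, with 6580 and 2886, while megakaryocyte markers were higher in 4 of 6, with 6273 and 21429; their part in the members' differences was not tested.

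In the split of ALCAM+ cells by podoplanin, members past 2-fold lay on both sides. Mgp was higher in PDPN+ cells, and Nt5e and Meox2 were higher in PDPN- cells. Higher in PDPN+ cells was thus 1 of the 5 members above the floor, against 19.9% of 13428 genes, and lower were 2, against 7.89%. Of these 2, Meox2 entered through PDPN- cells alone, the fraction where it was higher. The count of higher members is near the share over all genes, and nothing is read from it. The members' median difference was 0.82, with 0.04 over all genes. Of all genes past 2-fold, 71.6% were higher in PDPN+ cells as deposited and 53.8% after quantile normalisation. At 4-fold Mgp alone was higher, against 9.12% of genes, and no member lower, against 0.804%.

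Mgp was at 1043 in PDPN+ and 194 in PDPN- cells, a 5.04-fold difference. Nt5e, whose product CD73 turns extracellular AMP into adenosine, was at 1199 in PDPN+ and 3630 in PDPN- cells, 3.0-fold higher in the latter. Its probe set 1422974_at went the same way, with 58 and 216 (3.14-fold), while 1459023_at, at 30 and 47, was below the floor. Among all genes, 283 of 13428 had a lower PDPN+ minus PDPN- difference than Nt5e.

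Meox2 was at 80 in PDPN+ and 186 in PDPN- cells, a 2.10-fold difference. It lies close to the 2-fold line, and its other probe set, at 31 and 62, was below the floor. With a pseudocount of 64 its log2 difference was -0.80, within 2-fold. Dpp4 was at 7186 in PDPN+ and 3890 in PDPN- cells and Cd248 at 1257 and 706, with log2 differences of 0.88 and 0.82, short of 2-fold. All 4 probe sets of Dpp4 pointed to PDPN+ cells, with log2 differences from 0.88 to 1.17. Fap, at 15 and 30, Thy1, at 3 and 55, and Entpd2 lay below the floor in both fractions.

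**Figure D3:**
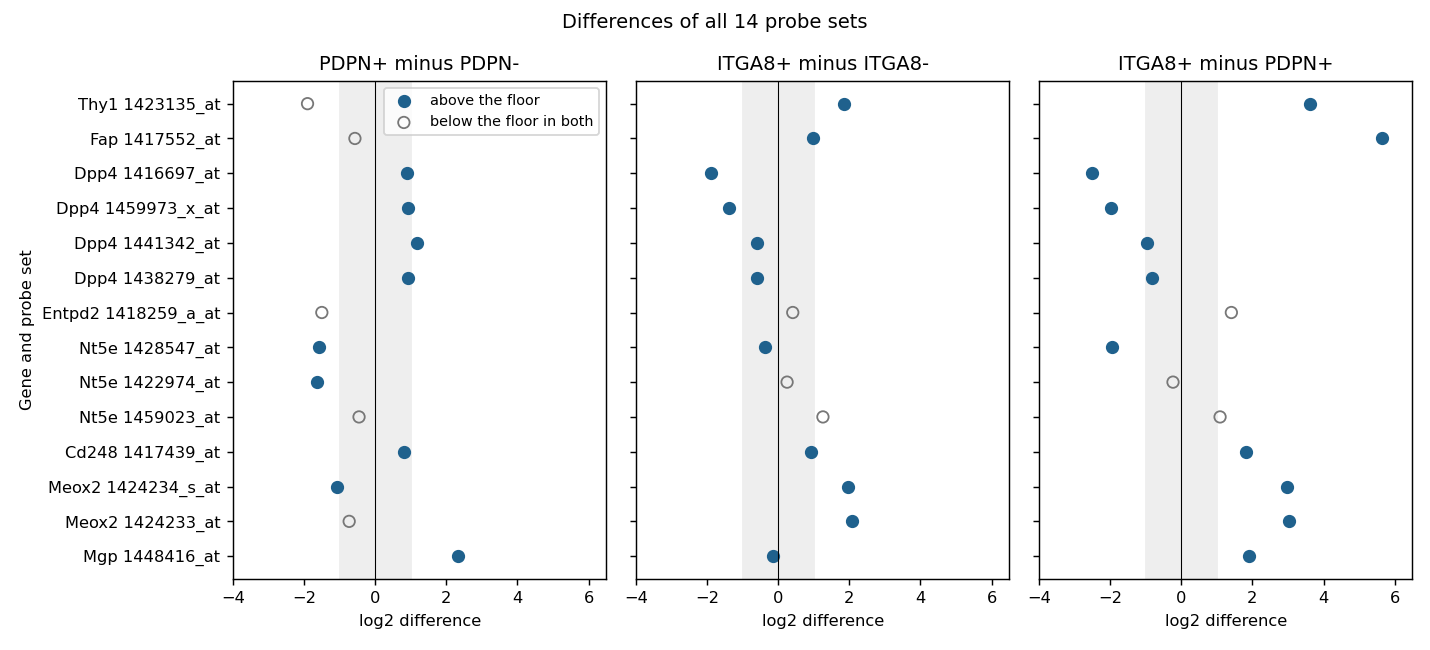
Differences of all 14 probe sets on the log2(intensity + 16) scale in the 2 splits and between the 2 positive fractions; filled points are above the floor, open points below it on both arrays, and the grey band is within 2-fold. The 4 Dpp4 probe sets are right of 0 in the PDPN split and left of 0 in the ITGA8 split, and the 2 Meox2 probe sets lie at 1.95 and 2.08 in the ITGA8 split.

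In PDPN+ cells 13 of 16 other portal fibroblast genes were higher, with none lower, and a median of 2.18 on the log2 scale. Fbln2, a basement membrane and elastic fibre protein gene, was at 1995 in PDPN+ and 152 in PDPN- cells, a difference of 3.58. Msln, a mesothelial surface protein gene, had a difference of 3.55, and Col15a1 and the hedgehog target Gli1 2.93 each. Lum, a small proteoglycan gene, was at -0.83 and Eln, elastin, at 0.86. Nt5e and Meox2 thus lay on the other side of 0 from most of the list. Beside this, mesothelial markers were higher in PDPN+ cells in 11 of 11, with a summed intensity of 69603 against 1682. Macrophage markers were higher in 6 of 6 (20646 against 312) and endothelial markers in 4 of 4 above the floor (2483 against 374). In PDPN- cells Cldn15, C1qc, Pecam1, Gp6, Vwf, Ngp, Camp and Mpo, markers of these cells and of megakaryocytes and neutrophils, were at 1 to 4. Hepatoblast markers had the largest sums of any marker list, with 139221 in PDPN+ and 162447 in PDPN- cells, and 0 of 6 passed 2-fold. Their sums were 133477 in ITGA8+ and 106496 in ITGA8- cells. The part of all these cells in the members' differences was not tested.

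**Figure D4:**
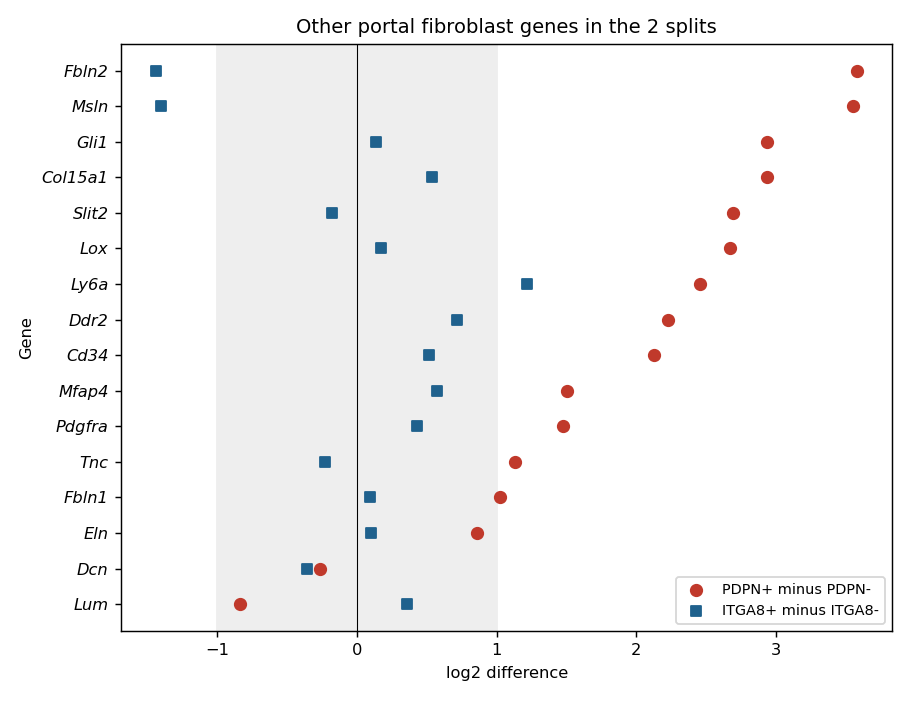
Log2 differences of 16 other portal fibroblast genes above the floor in PDPN+ minus PDPN- (red circles) and ITGA8+ minus ITGA8- (blue squares); the grey band is within 2-fold. In the PDPN split 13 of 16 lie at or beyond 1, and in the ITGA8 split 1 does, with 2 at or below -1.

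Genes listed for nucleotide breakdown and adenosine signalling went partly with Nt5e. Of 13 such genes above the floor, 4 were higher in PDPN- cells and 2 in PDPN+ cells. Not all of their products are enzymes that act outside the cell. Entpd8, an ecto-ATPase of hepatocyte canaliculi, was at 525 in PDPN- and 109 in PDPN+ cells, a difference of -2.11. The adenosine receptor gene Adora2a was at -1.77, the nucleotide pyrophosphatase gene Enpp3 at -1.56 and Entpd5, an enzyme of the endoplasmic reticulum, at -1.34. Entpd1, which encodes the ecto-ATPase CD39 of endothelium and leukocytes, went the other way, with 167 in PDPN+ and 3 in PDPN- cells. The paralog Entpd3 was below the floor on every array. Alkaline phosphatase (Alpl), another enzyme that can release adenosine from AMP, was at -0.87.

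Splitting ALCAM+ cells by ITGA8 put Meox2 and Thy1 on one side and Dpp4 on the other. Higher in ITGA8+ cells were 2 of the 7 members above the floor, against 5.36% of 13874 genes, and lower was 1, against 5.98%. Thy1 entered this comparison through ITGA8+ cells alone, so it could not be counted as lower. The members' median was 0.93, with 0.00 over all genes. No member reached 4-fold, as 0.353% of genes did upward and 0.469% downward. Fap and Cd248 fell just short of 2-fold, and Mgp and Nt5e differed little.

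Meox2 was at 731 in ITGA8+ and 177 in ITGA8- cells, 3.87-fold higher. Its other probe set was at 370 and 75, 4.24-fold higher, with log2 differences of 1.95 and 2.08. The former was exceeded by 57 of 13874 genes. Thy1 was at 216 in ITGA8+ and 49 in ITGA8- cells, 3.57-fold higher. No other probe set measures Thy1, and its lower array is below the floor, so the size of its fold depends on the pseudocount: it was 4.34-fold with 1 and 2.48-fold with 64.

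T cells and neurons also express Thy1. Of 6 T cell markers, 1 was above the floor in either ITGA8 fraction, Lck, at 147 in ITGA8+ and 243 in ITGA8- cells. Summed intensities of the 6 were 404 in ITGA8+ and 491 in ITGA8- cells. Neural markers had 4 of 7 above the floor in the pair, with sums of 1541 and 1231. None was 2-fold higher in ITGA8+ cells and 1 was lower, Stmn2, at 71 and 247. Cd3e, at 106 and 53, and Tubb3, at 34 and 6, were higher in ITGA8+ cells but below the floor in both fractions. Stellate markers were higher in ITGA8+ cells in 6 of 13, with sums of 45967 and 26826, and megakaryocyte markers in 5 of 6, with 31964 and 14001; the part of these cells in the members' differences was not tested.

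Dpp4, whose product CD26 trims dipeptides from chemokines and incretins, was at 1255 in ITGA8+ and 4708 in ITGA8- cells, 3.72-fold lower in ITGA8+ cells. Of all genes, 80 of 13874 had a lower difference. The other probe sets of Dpp4 were also lower in ITGA8+ cells, by 2.60-fold for 1459973_x_at, at 137 and 382, and by 1.51-fold and 1.5-fold for 1441342_at and 1438279_at. All 4 thus pointed the same way and 2 passed 2-fold. Mesothelial markers were lower in ITGA8+ cells in 10 of 11, with sums of 21624 and 55203; their part in the Dpp4 difference was not tested.

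Fap, which encodes a protease of reactive fibroblasts and of embryonic mesenchyme, was at 1539 in ITGA8+ and 778 in ITGA8- cells. Its difference of 0.97 on the log2 scale fell short of 2-fold and was 1.04 after quantile normalisation and with loess. Cd248 was at 4459 and 2330, a difference of 0.93. Mgp was at 3939 and 4324 and Nt5e at 302 and 397, with differences of -0.13 and -0.38. The other probe sets of Nt5e, below the floor in both fractions, were at 0.25 and 1.26. Fap and Dpp4, which are related in sequence, lie close together on chromosome 2 with Gcg, the glucagon gene, as the only annotated protein-coding gene between them in GRCm38.p6. Gcg was at 242 in ITGA8+, 624 in ITGA8-, 334 in PDPN+ and 17 in PDPN- cells, so its order of levels was that of neither neighbour. Of the 7 genes above the floor listed as relatives of Dpp4, Prcp, of the lysosome, was lower in ITGA8+ cells, at -1.69. The cytosolic Dpp9 was at 0.95.

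**Figure D5:**
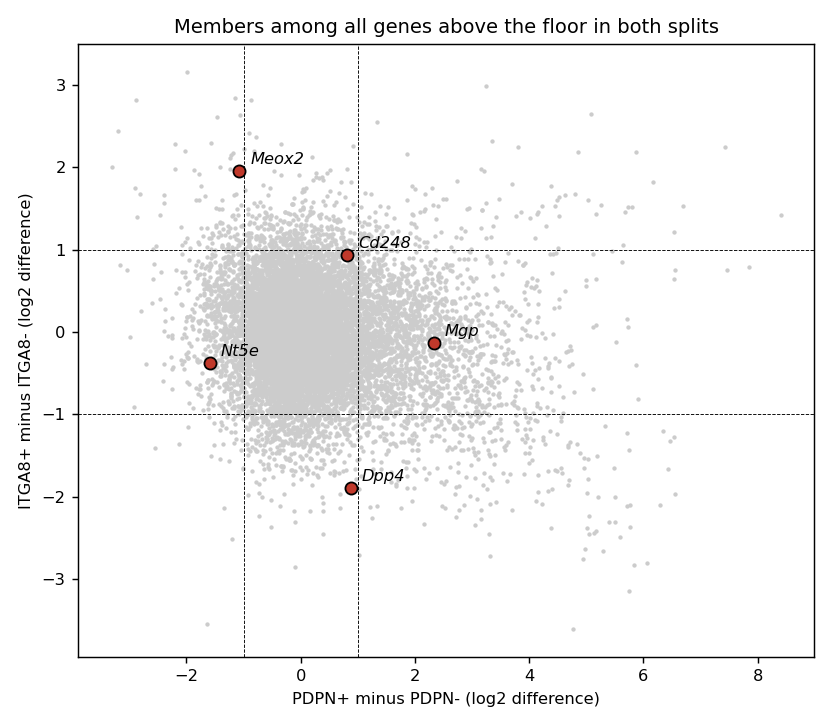
PDPN+ minus PDPN- (x axis) against ITGA8+ minus ITGA8- (y axis), both as log2 differences, for genes above the floor in both splits (grey) and the 5 members among them (red); dashed lines mark 2-fold. Meox2 is at -1.07 and 1.95, Dpp4 at 0.88 and -1.89, and Mgp at 2.33 and -0.13; Thy1 and Fap are absent because they were below the floor in both PDPN fractions.

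The lists around the members mostly stayed within 2-fold in the ITGA8 split. Of 16 other portal fibroblast genes 1 was higher, Ly6a at 1.22, and 2 were lower, Fbln2 at -1.44 and Msln at -1.40. Among 10 mesenchymal transcription factors Twist2 was higher, at 753 and 200 (1.83), and Osr1 lower, at 84 and 187 (-1.02). Meox1, the paralog of Meox2, was at 655 in ITGA8+ and 603 in ITGA8- cells, a difference of 0.12, where Meox2 was at 1.95. Among the surface genes, the nerve growth factor receptor gene Ngfr was at 2466 and 602 (2.01), and Mcam, an adhesion molecule gene of blood vessels, at 554 and 2068 (-1.87). The THY1 binding integrins included Itgb2, the leukocyte integrin subunit, at 1.39 and Itgb3 at 0.94, and 1 of 6 genes passed 2-fold.

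ITGA8+ cells were also set against PDPN+ cells, a comparison that shares an array with each split. With Pdpn at 4658 in ITGA8+ cells, the 2 fractions may hold some of the same kinds of cells. Thy1, Fap, Cd248, Meox2 and Mgp were higher in ITGA8+ cells and Dpp4 and Nt5e in PDPN+ cells, so all 7 members above the floor differed 2-fold. Higher were 5 of 7, against 16.2% of 14101 genes, and lower 2, against 14.2%, with a median of 1.90 for members and 0.04 for all genes. At 4-fold Thy1, Fap and Meox2 were higher, against 4.13% of genes, and Dpp4 lower, against 3.46%. Fap was at 1539 against 15 and Thy1 at 216 against 3. Both were below the floor in PDPN+ cells, and both entered the comparison through ITGA8+ cells alone. With pseudocounts of 1, 16 and 64 the fold was 96.2, 50.2 and 20.3 for Fap and 54.2, 12.2 and 4.18 for Thy1.

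Meox2, at 731 against 80, was also below the floor in PDPN+ cells, and its fold was 9.04, 7.78 and 5.52 with the same pseudocounts. Its other probe set, at 370 against 31, pointed the same way. Mgp was 3.73-fold and Cd248 3.52-fold higher. Dpp4 was 5.67-fold and Nt5e 3.82-fold lower, the latter with its 2 other probe sets below the floor in both arrays. Erythroid markers were higher in ITGA8+ cells in 5 of 5, with sums of 21606 against 1993, and stellate markers in 7 of 13, with 45967 against 23813. Mesothelial markers were lower in 10 of 11, with 21624 against 69603, macrophage markers in 6 of 6, with 1157 against 20646, and neutrophil markers in 4 of 5, with 2654 against 24738; their part in the members' differences was not tested.

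For Fap, Mgp and Nt5e the 2 fractions of one marker lay together and apart from the 2 fractions of the other, a pattern noticed after the values were seen. Fap was at 778 or above in both ITGA8 fractions and at 30 or below in both PDPN fractions, where it was below the floor. The gap between the nearest arrays was 25.1-fold, 17.3-fold and 8.96-fold with pseudocounts of 1, 16 and 64. Mgp, at 3939 and 4324 against 1043 and 194, had a gap of 3.73-fold. Nt5e went the other way, at 1199 and 3630 in the PDPN fractions against 302 and 397, a gap of 2.94-fold. Its other probe sets did not show a gap of this size. In PDPN+, PDPN-, ITGA8+ and ITGA8- cells, 1422974_at was at 58, 216, 47 and 37, a gap of 1.17-fold. It passed the floor in PDPN- cells alone. In the same order 1459023_at, below the floor on every array, was at 30, 47, 82 and 25, with overlapping ranges.

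By a rule of 2-fold between the nearest arrays, 2 of 7 members were higher in both ITGA8 fractions, against 5.29% of 14503 genes, and 1 was lower, against 2.94%. At 4-fold 1 of them, Fap, was higher, against 1.12%, and none lower, against 0.317%. As the pattern was first seen in these members, nothing is read from these counts. The PDPN fractions and the ITGA8 fractions are both divisions of ALCAM+ cells, and the 2 pairs of arrays cannot be told apart from the 2 markers used. The gap of Cd248, at 706 and 1257 against 2330 and 4459, was 1.84-fold, and Thy1, Meox2 and Dpp4 had overlapping ranges.

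The lists nearest to the members mostly did not divide this way. Of 16 other portal fibroblast genes 1 was 2-fold higher in both ITGA8 fractions, the microfibril gene Mfap4, at 6588 and 4432 against 1911 and 664. Of 12 other stromal surface genes none was, and Vcam1, an adhesion molecule gene, was higher in both PDPN fractions, at 7267 and 12695 against 3243 and 2926. Stellate markers were higher in both ITGA8 fractions in 2 of 13 and mesothelial markers in 0 of 11. Of 10 mesenchymal transcription factors 6 were 2-fold higher in both ITGA8 fractions, among them Twist1, at 3041 and 3717 against 412 and 213, and Prrx1, at 1163 and 786 against 115 and 79. The 4 other genes listed for the endosialin family and its ligand did so, led by Thbd, thrombomodulin, at 2293 and 2700 against 200 and 93, with the endosialin ligand gene Mmrn2 at 699 and 309 against 71 and 15. These 4 are also genes of endothelium, of whose 6 markers 1 was 2-fold higher in both ITGA8 fractions, with sums of 3914 and 3740 against 2483 and 374. In the vitamin K group, Ggcx, the carboxylase that activates Mgp protein, went against Mgp, with 295 and 458 in the ITGA8 fractions and 1181 and 2337 in the PDPN fractions. Of 5 erythroid markers 5 were higher in both ITGA8 fractions, with sums of 21606 and 16790 against 1993 and 1467. Of 4 progenitor markers 2 were, with sums of 13409 and 13392 against 2452 and 537; the part of these cells in the members' gaps was not tested.

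The genes most like each member were found by the root mean square difference of log2 values centred on their mean over the 4 fraction arrays, among 14502 genes. For Nt5e these were Cdo1, cysteine dioxygenase, the zinc transporter gene Slc39a5 and the coagulation factor gene F7, with differences of 0.02 to 0.08. Cdo1 had an intensity of 2370 in PDPN+ cells, 7333 in PDPN- cells, 621 in ITGA8+ cells and 822 in ITGA8- cells. For Mgp they were the VEGF receptor gene Flt1, the integrin gene Itgb8 and the potassium channel subunit gene Kcne3, at 0.04 to 0.11. Itgb8 was at 202, 29, 723 and 886 in the same order.

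Thy1 was nearest to Ggt5, Plvap and Gdf10, at 0.17 to 0.24, and Meox2 to Fndc5, Rbp3 and Gdf10, at 0.09 to 0.17. Gdf10, a secreted factor of the TGF-beta superfamily, was near both, at 1047, 2494, 10966 and 2763 in that order of fractions. Plvap, a protein of endothelial diaphragms, was at 88, 460, 1840 and 365. Dpp4 was nearest to the phosphatase gene Dusp5, Naaa and Serinc5, at 0.07 to 0.16, and Dusp5 was at 4041, 1977, 624 and 2388. Fap had no gene closer than 0.45, with the amino acid transaminase gene Bcat1, AI661323 and Gabrb2 nearest, and Bcat1 at 124, 246, 4508 and 2122. For Cd248 the nearest were Ddx43, Mybpc3 and Igll1, at 0.01 to 0.05, genes with lower intensities than Cd248, such as Ddx43 at 67, 32, 282 and 141. With 4 arrays, likeness of this kind describes these libraries alone.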

How the data were processed

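The 6 groups, of 1 array each, were taken from the samples' source labels; 20 ng of total RNA was amplified and labelled with biotin, per the labels. The deposited file holds linear intensity values as whole numbers; RMA and Partek are named in the submitters' processing notes, with no versions. The 4 fraction arrays share 1 trimmed mean (2% at each end) and the other 2 do not, so comparisons were made within these sets, except ranks and the choice of probe set. Of the probe sets, 64 controls, 5746 without a gene and 1280 with several genes were left out, leaving 38011; symbols of other genes came through Entrez identifiers from RefSeq (GRCm38.p6), which matched 92.1%. Each gene's value is that of the probe set whose mean intensity on the 6 arrays was largest. In ALCAM+ minus liver the median over genes above the floor was subtracted; this and the pseudocount were chosen with earlier results known. The design assumed no replicate test, and none was run; precision is limited by the number of arrays. Named genes were the members, the 3 nearest genes of each member that spans 1 log2 unit, and list genes with the largest differences or a direct link to a member. The members and lists were chosen with earlier results of these data known. The comparison of the 2 pairs of fractions was added after the values were seen. The calculation was tested on simulated pairs of arrays. Tools were numpy 2.4.6, pandas 2.3.3, statsmodels 0.14.6 (loess span 0.3) and matplotlib 3.10.9. Alternatives were pseudocounts of 1 and 64, no floor, a floor 4 times higher or per array, the mean of probe sets, specific probe sets, quantile normalisation, loess, median subtraction, the deposited scale and a 4-fold threshold.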

Additional observations from a re-analysis of the deposited data

How the results depend on the processing

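No member difference past 2-fold changed its sign under the alternatives run. Within 2-fold, Nt5e did with the mean of probe sets. It went from 0.59 to -0.24 in ALCAM+ minus liver and from -0.38 to 0.38 in ITGA8+ minus ITGA8-, where its other probe sets were below the floor. Of 287 recomputed differences 257 kept their call and 9 gained one. Another 21 lost it: 9 were past 2-fold but short of the 4-fold threshold, 6 were past 2-fold but below the floor of the alternative, and 6 fell within 2-fold. Some of the 257 could not change. In ALCAM+ minus liver median subtraction repeats the main values, and in the other comparisons removing the floor leaves each value as it was. The share that kept its call is therefore no measure of robustness. Of 110 recomputed counts 93 stayed within 1.5 times. In ALCAM+ minus liver the 4 higher members were 2 with a floor 4 times higher. Dpp4 and Nt5e also passed 2-fold without a floor, with the deposited scale and with the median over all genes (0.47) subtracted, an alternative added after the data were seen. Without a floor the median subtracted is that over all genes, so these 2 alternatives give the same values. In PDPN+ minus PDPN- the 2 lower members were 1 with a pseudocount of 64, with the higher floor, with the mean of probe sets and with specific probe sets. They were 4 without a floor, where Thy1 and Entpd2 entered, and 0 at 4-fold, and the 1 higher member became 2 with loess. In ITGA8+ minus ITGA8- the 2 higher members were 1 with the higher floor and 0 at 4-fold, and the 1 lower was 0 at 4-fold. In ITGA8+ minus PDPN+ the 5 higher were 3 at 4-fold, and the 2 lower were 1 at 4-fold and with the mean of probe sets, where Nt5e was at -0.36. Between the 2 pairs of fractions the 2 higher were 1 at 4-fold, and the 1 lower was 0 at 4-fold and with the mean of probe sets. Apart from the thresholds, floors and averaging of low probe sets, whose construction changes what is counted, the cause was not tested. No paired analysis was possible because each group has 1 array, and for the same reason no replicate could be left out.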
